A study of Populus yunnanensis with 9 samples.

Results

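The joint effect of cadmium (Cd) and ammonium bicarbonate on the leaf transcriptome of Yunnan poplar (Populus yunnanensis) was followed by comparing 3 Cd + N libraries with 3 control (CK) libraries, which are 6 of the 9 libraries of the study. They were selected by their labels alone, and each of the 41335 listed genes was included. All plants were grown from cuttings, 72 cuttings from 15 trees, grown in 24 pots with 3 cuttings and 15 kg of dry soil each, and the seedlings were 4 months old. Cd + N plants received 40 mg Cd and 30 mg N per kg of dry soil every 5 d over 60 d, up to final concentrations of 480 mg Cd and 360 mg N per kg, while CK plants received neither. The sources state the same N concentrations but differ in the mass of ammonium bicarbonate per addition, so the N dose rests on the stated concentrations. A set with the same Cd additions and no added N (Cd, 3 libraries) also entered the estimate of the spread, and is quoted where it places a change. The paper measured less Cd than the nominal concentration in the soil of both treated sets. It also measured less Cd in soil and more in leaves with added N than with Cd alone. RNA came from upper leaves, the fourth to the sixth below the apex. The sources used here do not say which trees, pots or numbers of plants made up a library, so p-values measure the spread between these libraries, which may be partly technical or genetic. No group received N without Cd, and the effects of Cd and of N cannot be told apart in this comparison.

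Cd is a toxic metal without a known nutritional role in trees. It is taken up through carriers for essential divalent metals, binds to thiol groups, and is held in plants as complexes with glutathione and phytochelatins that are moved into the vacuole. Ammonium is assimilated into glutamine and glutamate, which feed the synthesis of amino acids, chlorophyll and the thiol peptides that bind Cd.

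The deposited data give genes by identifier only and do not pair the identifiers with names. No annotation was used here, so the pathway lists, the transcription factor families and the markers of leaf cells could not be looked up, and the labelled tissue was not checked against markers. Genes are therefore described by direction, size, level and behaviour across libraries, and 2 rising and 2 falling identifiers are given in full. In bulk leaf RNA, a change in the number of cells of one type and a change of RNA per cell cannot be told apart.

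The 6 libraries held between 33364795 and 40101176 counts on genes, with a count on between 30546 and 31447 genes each, and 27378 genes passed a filter on low counts over all 9 libraries. Of these, 55 were up-regulated and 18 were down-regulated in Cd + N compared with CK by edgeR's quasi-likelihood test with Benjamini-Hochberg adjustment at a threshold of 0.05. These counts were 0.201% and 0.0657% of the genes tested, and 0.267% together. At an unadjusted p under 0.05, 2585 genes (9.44%) were higher and 2083 (7.61%) were lower in Cd + N. The replicate number was also entered as a block. The deviations of CK and Cd + N libraries from their group means correlated over 0.1, the limit set for a pairing, in each same-numbered pair. These correlations were 0.18, 0.32 and 0.12 for replicates 1, 2 and 3. CK replicate 3 and Cd + N replicate 1, which differ in number, reached 0.27. With the block, 809 genes (2.95%) were up-regulated and 633 (2.31%) were down-regulated, 5.27% together, and every one of the 73 genes found without the block was among them. The block lowered the common coefficient of biological variation over genes to 0.307, against 0.380 without it, while the residual degrees of freedom fell to 4, against 6. The median log2 fold change of all genes tested was close to 0 in both fits, -0.01 with the block and 0.00 without it.

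**Figure D1:**
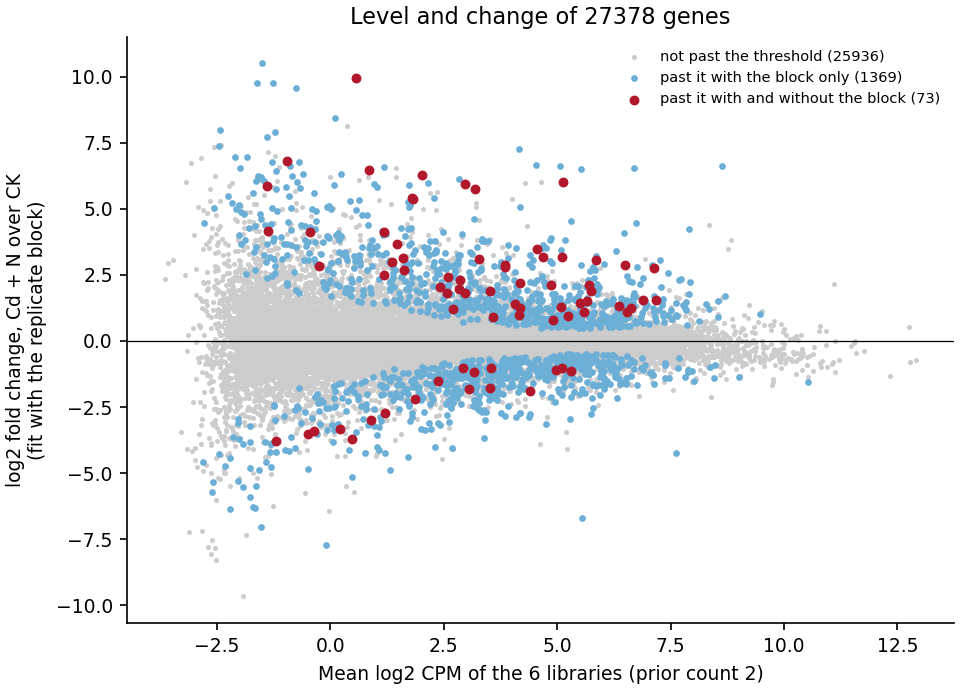
Each point is 1 of 27378 genes, with its mean log2 CPM over the 6 libraries on the x axis and its log2 fold change of Cd + N over CK, from the fit with the replicate block, on the y axis. The 73 genes past the threshold in both fits are marked apart from the 1369 past it with the block only. With the block, the median change of up-regulated genes was larger under 1 CPM than from 10 to 100 CPM.

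The up-regulated genes had the larger changes. Without the block, their median log2 fold change was 2.51, with quartiles of 1.53 and 3.52 and a highest value of 9.94. At least 4-fold increases were found in 34 of the 55 genes and at least 8-fold increases in 21. The median log2 fold change of the 18 down-regulated genes was -1.86 and the lowest was -3.79, and 8 of them fell at least 4-fold. In the fit with the block, 371 of 809 up-regulated genes and 175 of 633 down-regulated genes changed at least 4-fold. Increases of over 32-fold occurred in 70 genes and decreases of that size in 13. The smallest changes past the threshold with the block were 0.49 and -0.48 on the log2 scale. The medians were 1.84 for up-regulated and -1.41 for down-regulated genes. Fitted fold changes of genes with few counts in one group depend on the prior count and are not bounds.

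Genes with a count of 0 in every library of a group, and a count in every library of the other, were of low level. Genes with a few counts in a group were not counted here. A count in each Cd + N library and none in any CK library was found for 150 genes, with at most 199 counts in a library. The opposite pattern was found for 80 genes, with at most 317 counts in a CK library. A count of 0 in libraries of this depth does not show that a gene is silent, and most of these genes were removed by the filter on low counts.

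The gene with the smallest p among those that rose was Potri.002G013400.v3.0. Its Cd + N libraries had 20.8, 24.9 and 20.2 TMM-normalized CPM (counts scaled to a common library total with edgeR's TMM factors), and its CK libraries had 5.83, 6.62 and 5.47 CPM. The groups did not overlap, and replicate 2 was the highest in both. Its mean was 22.0 ± 2.56 CPM in Cd + N and 5.97 ± 0.589 CPM in CK (SD, n = 3 each), or 1.88 ± 0.159 as log2 fold change ± SE (edgeR adjusted p = 0.0357, with the block 0.00517). Its Cd libraries, at 13.6, 15.0 and 11.9 CPM, lay between the other groups without overlap. On the length-scaled FPKM values its mean was 8.65 ± 0.982 in Cd + N and 2.29 ± 0.199 in CK.

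Potri.003G016900.v3.0 was next among the rising genes. The values were 14.8, 16.2 and 12.9 CPM in Cd + N and 3.32, 4.75 and 4.40 CPM in CK. The groups did not overlap, and the lowest Cd + N library stood far above the highest CK library. On the log2 scale it rose by 1.81 ± 0.185 (SE, edgeR adjusted p = 0.0451, with the block 0.0143). In Cd it had 6.01, 5.94 and 5.67 CPM, close together and nearer to CK than to Cd + N. The mean FPKM of this gene was 53.5 ± 5.93 in Cd + N and 14.8 ± 2.83 in CK, so that per length it was the more abundant of the pair of rising genes.

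Among the genes that fell, Potri.006G055400.v3.0 had the smallest p. It had 10.1, 12.8 and 10.2 CPM in Cd + N, against 46.4, 35.9 and 39.3 CPM in CK. Replicate 2 was the highest of the Cd + N libraries and the lowest of the CK libraries, and the groups stayed far apart. The change on the log2 scale was -1.88 ± 0.171 (SE, edgeR adjusted p = 0.0357, with the block 0.0114). The Cd libraries, at 28.8, 32.6 and 23.9 CPM, were all lower than CK and higher than Cd + N.

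Potri.013G127700.v3.0 followed, a gene of low level. It had 0.176, 0.299 and 0.157 CPM in Cd + N, from 6, 11 and 6 reads, and 2.54, 1.80 and 2.61 CPM in CK, from 97, 58 and 93 reads. The groups were separated by a wide gap despite the low counts. It changed by -3.44 ± 0.415 on the log2 scale (SE, edgeR adjusted p = 0.0451, with the block 0.0197). With 0.755, 0.424 and 0.587 CPM, the Cd libraries were again between the other groups. For none of the named genes was Cd against CK past the threshold in either fit (edgeR adjusted p from 0.188 to 0.431 without the block). Cd + N against Cd passed only with the block, for Potri.003G016900.v3.0 (edgeR adjusted p = 0.0377) and Potri.006G055400.v3.0 (0.0294).

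**Figure D2:**
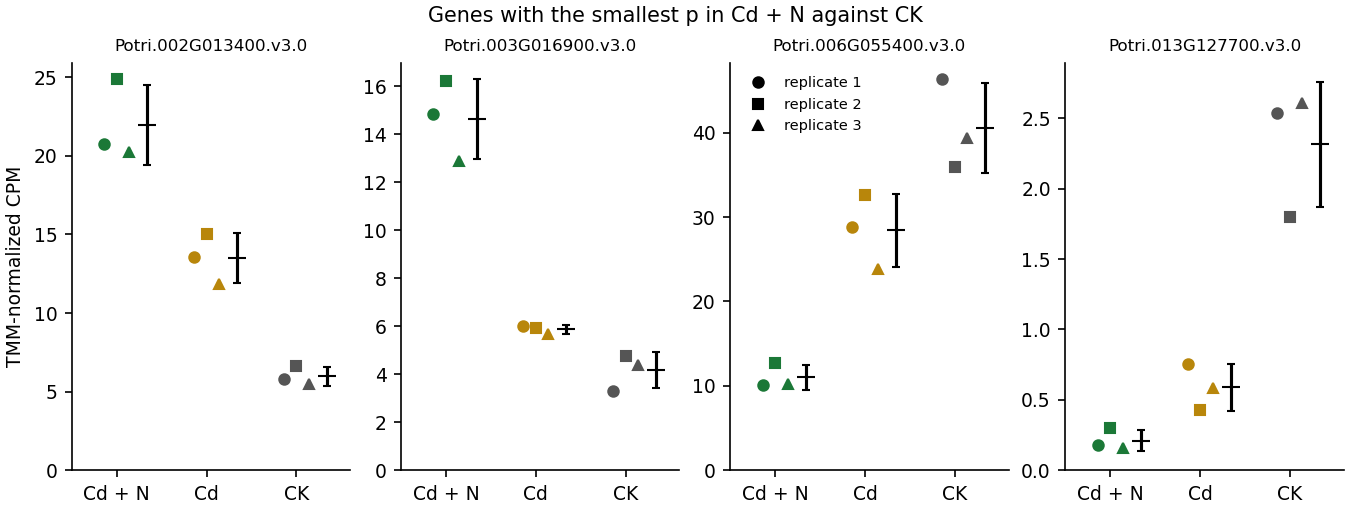
TMM-normalized CPM of 4 genes in each library of Cd + N, Cd and CK, with the replicate number as the symbol and the mean ± SD (n = 3) beside each group. In each gene the 3 Cd + N libraries lie apart from the 3 CK libraries, and the Cd libraries lie between them.

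Direction was kept in every one of the 36 other settings tried for each of these 4 genes, while the call was not. The 4 genes were chosen by the smallest p in these libraries, and their Cd + N and CK libraries do not overlap. A kept direction was thus favoured by the choice and is not further support. The adjusted p was past the threshold in 25, 21, 25 and 19 of the 36 settings for Potri.002G013400.v3.0, Potri.003G016900.v3.0, Potri.006G055400.v3.0 and Potri.013G127700.v3.0. With a library or a replicate number left out, the log2 fold changes stayed between 1.78 and 1.96, between 1.65 and 1.96, between -2.08 and -1.72 and between -3.95 and -3.13, in the same order. The highest adjusted p of any setting was 0.276 for each of the first 3 genes and 0.369 for the last.

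The share of up-regulated genes was higher in classes of higher expression, set by the mean over the 6 libraries, those of Cd + N included. With the block, 1.25% of the 4009 genes with a mean under 1 CPM were up-regulated, 3.02% of the 8671 genes from 1 to 10 CPM, 3.18% of the 12786 genes from 10 to 100 CPM and 4.76% of the 1912 genes over 100 CPM. The share of down-regulated genes did not follow this order. It was 0.898%, 2.46%, 2.70% and 2.04% in these classes. The balance was thus 91 up-regulated against 39 down-regulated genes in the highest class. The median log2 fold change of up-regulated genes was 3.98 under 1 CPM and 1.34 from 10 to 100 CPM, and the part of depth in this was not tested. Of the 100 genes with the highest mean FPKM, all with at least 583 FPKM, 9 were past the threshold with the block (3 up-regulated and 6 down-regulated) and 0 without it, beside 5.27% and 0.267% of all genes tested.

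**Figure D3:**
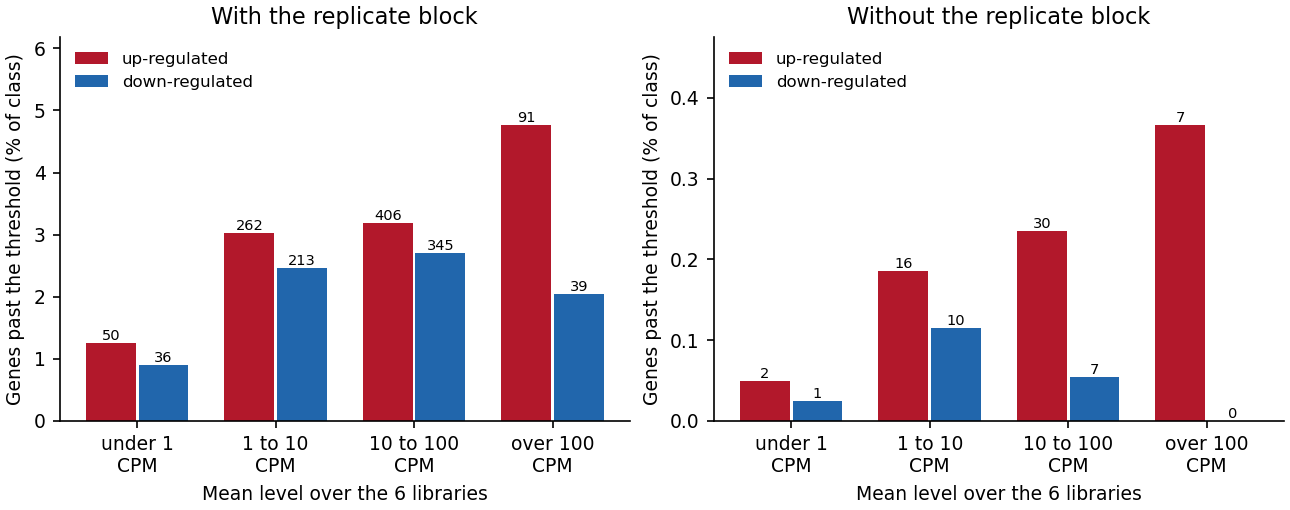
Share of the tested genes of each level class that was up-regulated or down-regulated in Cd + N compared with CK, with the number of genes above each bar, with and without the replicate block. The y axes differ in scale. With the block, up-regulation reached 4.76% of the genes over 100 CPM, against 2.04% for down-regulation.

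Which set was the more abundant depended on the group. The median log2 CPM of the 809 up-regulated genes was 4.2, 5.1 and 4.3 in Cd + N and 2.2, 3.2 and 2.4 in CK. That of the 633 down-regulated genes was 3.2, 2.3 and 3.1 in Cd + N and 4.7, 3.9 and 4.6 in CK. In CK the up-regulated genes were thus the lower set in each library, and in Cd + N they were the higher set, as their selection favours. Per length, the median FPKM over the 6 libraries was 9.45 for the 809 genes, against 6.95 for the 633 down-regulated genes and 5.86 for all genes tested. Over 100 FPKM were found for 47 of the 809 up-regulated and 23 of the 633 down-regulated genes, and for 844 of all 27378 genes tested. Lengths recovered from the FPKM values had a median of 1563 bases in up-regulated genes, 1827 bases in down-regulated genes and 1740 bases in all genes tested. All 34971 recovered lengths were multiples of 3 and the longest was 176595 bases, and what part of a gene they measure was not checked. These level and length values are descriptions, and their part in the calls was not tested.

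Together, the 809 up-regulated genes took 4.68%, 8.81% and 4.37% of the counts in Cd + N replicates 1, 2 and 3, and 1.24%, 2.41% and 1.52% in CK. In both groups, replicate 2 held the largest share. The 633 down-regulated genes took 1.62%, 0.858% and 1.50% in Cd + N and 3.89%, 2.13% and 3.57% in CK, and here replicate 2 held the smallest share in both. The same was seen in Cd, where the up-regulated genes took 1.76%, 3.90% and 2.63% and the down-regulated genes 3.25%, 1.74% and 2.46%. Since the genes were selected by the difference between Cd + N and CK, that difference in the shares is a description and not a further test.

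**Figure D4:**
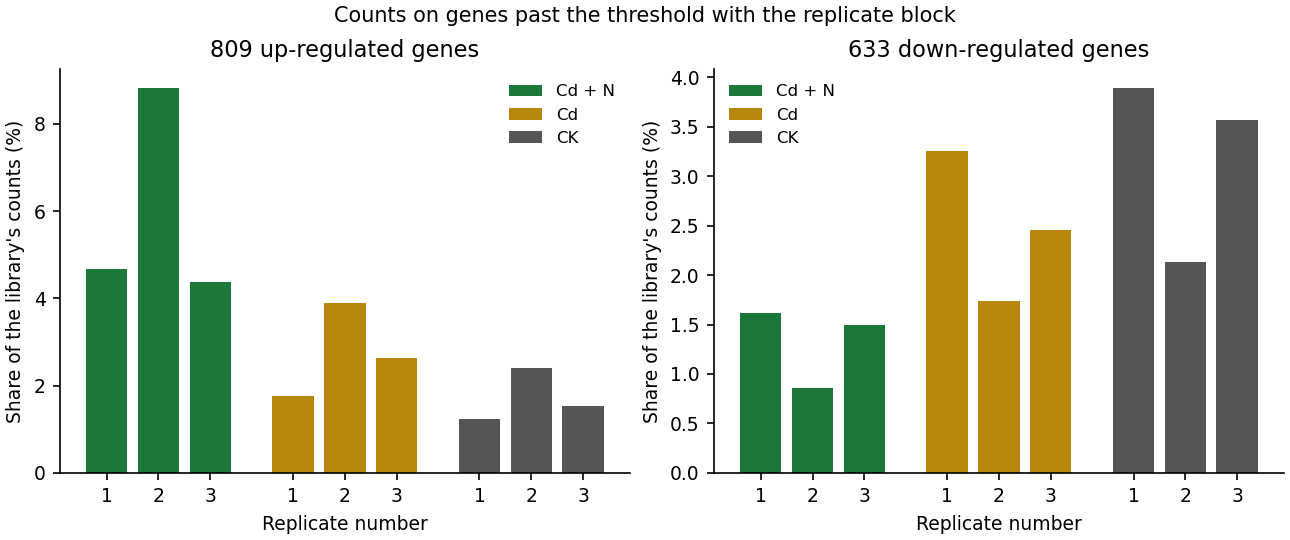
Share of each library's counts on the genes past the threshold with the replicate block, by group and replicate number. Replicate 2 is the highest of its group for the up-regulated genes and the lowest of its group for the down-regulated genes in Cd + N, Cd and CK.

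Gene by gene, replicate 2 was the library shifted furthest in the direction of Cd + N for most genes found with the block. The fit with the block removes differences that follow the replicate number, which favours genes with such differences. The part of this selection in the shares was not tested. Of the 809 up-regulated genes, it was the highest library of Cd + N for 609 genes (75.3%), of Cd for 547 (67.6%) and of CK for 577 (71.3%). Of the 633 down-regulated genes, it was the lowest of Cd + N for 545 (86.1%), of Cd for 533 (84.2%) and of CK for 574 (90.7%). Among all genes tested, replicate 2 was the highest for 56.0%, 48.1% and 52.2% of those with a positive log2 fold change in these 3 groups. It was the lowest for 57.5%, 47.4% and 54.9% of those with a negative one. Of the 55 genes up-regulated without the block, replicate 2 was the highest library of Cd + N for 29 (52.7%). This was no more than the 56.0% of all tested genes with a positive log2 fold change. Replicate 2 was the highest for 18 of the 55 (32.7%) in Cd and 18 in CK, where replicate 3 was the highest for 35. Of the 18 down-regulated genes, replicate 2 was the lowest for 9 in Cd + N, 9 in Cd and 11 in CK. What the replicate numbers share was not stated in the sources used here, and its part in the result was not tested.

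Over all genes, replicate 2 also stood apart from the other libraries of its group in Cd + N and CK, but not in Cd. Measured as root mean square differences of log2 CPM, replicates 1 and 3 lay 0.562 apart in Cd + N and 0.599 apart in CK. Replicate 2 lay 0.985 and 0.934 from them in Cd + N and 0.872 and 0.939 in CK. In Cd, replicate 1 was the library apart, 1.19 and 1.06 from replicates 2 and 3, which lay 0.781 from each other. Distances from Cd + N to CK were 1.11, 1.13 and 1.00 in the 3 same-numbered pairs. In the 6 other pairs they ranged more widely, and the lowest was 0.810 for Cd + N replicate 3 and CK replicate 2. The highest were 1.49 and 1.45, for Cd + N replicate 2 with CK replicates 1 and 3. Replicate 2 of CK was thus nearer to Cd + N replicates 1 and 3 than those were to the CK libraries of their own number. Of the genes that ranged over 4-fold within a group, the library farthest from the median was replicate 2 for 1485 of 2107 genes in Cd + N and 1326 of 1986 genes in CK.

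**Figure D5:**
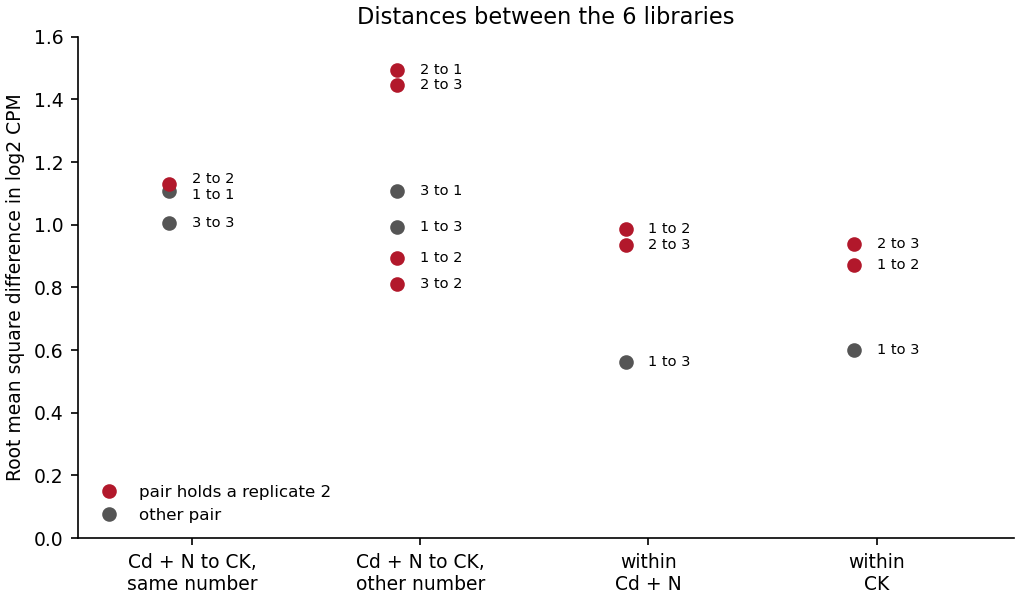
Distance between libraries (y axis, root mean square of log2 CPM differences) among the 6 libraries, for pairs of Cd + N and CK libraries and for pairs within a group, labelled by replicate numbers with the number of Cd + N first. Same-numbered pairs lie between 1.00 and 1.13, while the other pairs between groups spread from 0.810 to 1.49.

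Taken pair by pair, without a model, 13240 of the 27378 genes (48.4%) moved in the same direction in all 3 same-numbered pairs, 6698 up and 6542 down. At least a 2-fold change in every pair was found for 1787 genes (6.53%), 1043 upward (3.81%) and 744 downward (2.72%). The 3 libraries of Cd + N and of CK did not overlap for 26.2% of genes, 3707 with Cd + N above CK and 3457 with Cd + N below. All 55 up-regulated and all 18 down-regulated genes of the fit without the block were free of overlap, and so were 689 of the 809 and 518 of the 633 genes of the fit with it, as the tests favour such genes. Of the 55 genes, 43 rose at least 2-fold in every pair. Their median difference in log2 CPM was 2.90 in pair 1, 2.40 in pair 2 and 1.74 in pair 3, and pair 3 had the smallest difference for 44 of them. In the 18 down-regulated genes the medians were -2.20, -1.49 and -1.80, so that pair 2 was the smallest. With the block the medians of the 3 pairs were close, 1.89, 1.73 and 1.59 for up-regulated and -1.39, -1.40 and -1.35 for down-regulated genes. A fit with the block favours genes whose same-numbered differences are alike.

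In plants that received Cd without N, these genes mostly held intermediate levels. The Cd mean lay between those of Cd + N and CK for 53 of the 55 up-regulated and 17 of the 18 down-regulated genes, and it did so for 11397 of all 27378 genes tested. Selecting genes for a large difference between Cd + N and CK favours such a place for the third group, and its part in this count was not tested. For the 55 genes, the median log2 fold change was 1.19 in Cd against CK and 1.06 in Cd + N against Cd, comparisons that share the Cd libraries. For the 18 genes the values were -0.69 and -1.32. All 9 libraries fell into 3 groups without overlap, with Cd in the middle, for 37 of the 55 and 11 of the 18 genes, and for 180 of all genes tested. The Cd libraries overlapped those of CK for 6 of the 55 genes and those of Cd + N for 12. Of the 18 genes, 7 had Cd libraries that overlapped CK and 0 had Cd libraries that overlapped Cd + N. Among the genes found with the block, the Cd libraries overlapped those of CK for 555 of 809 up-regulated and 535 of 633 down-regulated genes. They overlapped those of Cd + N for 415 and 386. Of all 27378 genes tested, the Cd libraries overlapped those of CK for 23341 and those of Cd + N for 22551.

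The changed genes were spread over all identifier numbers. Identifiers carry a number from 1 to 19 after the first point or the letter T, and what these stand for was not looked up. With the block, between 3.63% and 7.24% of the tested genes of each number were past the threshold, and 3.85% of those under T. At least 1 of the 55 up-regulated genes carried each of the 19 numbers. Some of the changed genes had a neighbouring identifier that changed in the same direction. The share that the spread of calls alone would give was not computed. Up-regulated genes were 2.95% and down-regulated genes 2.31% of all genes tested, but these are not the shares to be met among genes with a changed neighbour. An identifier has up to 2 neighbours, and the sorted list held all 41335 genes, tested or not. Of the 809 up-regulated genes, 78 stood next to another up-regulated gene in the sorted list of identifiers, and 62 of the 633 down-regulated genes stood next to another down-regulated one. They formed 64 runs, of which 55 held 2 identifiers, and the longest held 5. The genes of this run carried the number 17, and their log2 fold changes lay between -1.37 and -1.09. Their summed level was 334, 152 and 331 CPM in Cd + N, against 631, 427 and 702 CPM in CK. Replicate 2 was the lowest in both groups. The longest run of up-regulated genes held 4 identifiers of number 9, with a summed level of 34.1, 158 and 37.8 CPM in Cd + N and 3.29, 5.90 and 2.89 CPM in CK. Here replicate 2 was the highest in both. Whether counting used the strand or how it treated reads that match several genes was not given in the sources used here. Reads may be shared between near-identical or overlapping neighbours, and such runs need not be independent genes.

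Single libraries moved the number of genes found by a large factor in both fits. Without the block, no gene passed when Cd + N replicate 1 or 2, Cd replicate 2, or CK replicate 1 or 3 was left out, which is a count of 0 in each case. The count was 42 on omission of Cd + N replicate 3, and omission of Cd replicate 1 or 3 gave 440 and 3. With the block, 94, 340 and 446 genes were past the threshold on omission of Cd + N replicates 1, 2 and 3. Omission of Cd replicates 1 and 2 gave 2359 and 882, and omission of CK replicates 1, 2 and 3 gave 9, 220 and 68. Up-regulated genes outnumbered down-regulated ones in all settings that gave calls except without CK replicate 2 in the fit without the block, where 24 rose and 34 fell. DESeq2, run without the filter on low counts, gave 1239 up-regulated and 894 down-regulated genes without the block, a more even split than 55 and 18.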

How the data were processed

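RNA sequencing of leaves gave 9 libraries, 3 each of Cd + N, Cd and CK, grouped by their sample labels. Whole-number read counts for each gene, without normalization, were deposited by the authors together with FPKM values. FPKM values deposited by the authors equalled counts scaled to a fixed length per gene and to the library total within a relative tolerance of 1e-06. The submitters' processing notes name Bowtie2 2.0.6 and TopHat2 2.0.12, without their roles. The counting tool, strand setting and genome build are not given in the sources used here.

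Testing used edgeR 4.0.16 in R 4.3.3 (filterByExpr with a minimum count of 10 and a minimum total of 15, TMM factors, quasi-likelihood test on all 9 libraries). DESeq2 1.42.0 and limma 3.58.1 were used as alternatives, and plots were drawn with matplotlib 3.10.9. Log2 CPM values have a prior count of 2. Standard errors are approximate and were derived by dividing the absolute log2 fold change by the root of the F statistic. Replicates of a group all differed by more than the noise of sampling reads. The same-numbered libraries of CK and Cd + N deviated from the means of their groups with correlations across genes of 0.12 to 0.32, all over the limit of 0.1 for a pairing, while other pairs ranged from -0.33 to 0.27. The highest of the other pairs, CK replicate 3 with Cd + N replicate 1, lay above the same-numbered pairs of replicates 1 and 3. By the limit alone, the block was given beside the fit without it.

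The comparison and the gene lists were chosen with earlier results of these data known. Genes were to be named by size of change, level and pathway list or, without an annotation, as the 2 rising and 2 falling identifiers with the smallest p. The rule for data without an annotation was used. The lists, matched on gene descriptions, were not run. The tests were run on simulated counts with a replicate effect that was the same in every group, a setting that the data need not meet. Alternatives were DESeq2, upper-quartile factors, no filter, only the 2 groups, limma on log2(FPKM + 1) and log2(FPKM + 0.1) for genes with at least 1 FPKM in 3 libraries, the first also without this filter, and each library left out. Leaving out each replicate number in every group was added after the data were seen.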

Additional observations from a re-analysis of the deposited data

How the results depend on the processing

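The count of 73 genes without the block was 71 under upper-quartile scaling, 72 when no gene was filtered and 86 when Cd was left out of the fit, of which 71, 67 and 30 were among the 73. It was 2133 by DESeq2, which included all 73, 240 and 197 by limma on log2(FPKM + 1) and log2(FPKM + 0.1), and 179 by the first without a filter. The genes tested differed, with 27378 in the main fit, 34772 by DESeq2 and 23786 by limma with its filter. DESeq2 was run without the filter on low counts, with and without the block. With single libraries left out it ranged from 0 to 440. Without replicate 1, 2 or 3 of every group, which leaves 2 libraries each, it was 0, 117 and 0, and 10 of the 117 were among the 73.

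With the replicate block as a term the count was 1442, and the fit with no replicate block gave 73. It was 1485 under upper-quartile scaling, 1523 when no gene was filtered, 1649 when Cd was left out and 4125 by DESeq2 with the block, which included 1441 of the 1442. With single libraries left out it ranged from 9 to 2359 (94, 340 and 446 for Cd + N replicates 1 to 3, 882 for Cd replicate 2, and 220 and 68 for CK replicates 2 and 3), and without replicate 1, 2 or 3 of every group it was 41, 21 and 33, of which 36, 20 and 28 were among the 1442. Fewer libraries leave fewer degrees of freedom, and the cause of the other changes was not tested. The median log2 fold change of all genes stayed between -0.01 and 0.03 in all settings. Among genes under 1 CPM, the median log2 fold change of those up-regulated with the block was 3.98.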
